A study of Mus musculus with 11 samples.

Results

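Fibroblast wells of Smart-seq2 plates were compared between mice given carbon tetrachloride (CCl4) for 6 weeks and uninjured mice. Smart-seq2 sequences full-length transcripts of single cells sorted into wells. Wells were chosen by the measured reads of 7 genes and by depth. A well entered when it held at least 50000 reads on genes, at least 100 summed reads of Pdgfra, Clec3b, Dpt, Entpd2 and Gpx3, and fewer than 100 summed reads of Myh11 and Cnn1. The rule took 358 of the 764 wells of CCl4 and uninjured mice on plates 3 and 5, of 2292 wells on the 6 plates of the series. These were 255 wells of CCl4 mice and 103 wells of uninjured mice. The name fibroblast wells stands here for wells that met this rule, and many of the CCl4 wells among them also held mesothelial marker reads, as given below.

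All mice were adult male Pdgfrb-BAC-eGFP reporters on a C57BL/6 background, in which a Pdgfrb transgene drives eGFP, and GFP-positive cells without the surface markers CD45 and CD102 were sorted after the digestion protocol that the labels call PF. CCl4 is a hepatotoxin that injures the centre of the lobule, and it was injected repeatedly over the 6 weeks. The uninjured mice carried the same reporter, and no source used here states that they received a vehicle. Each plate held 3 mice by its labels, 1 uninjured and 2 given CCl4, listed in the plate layout as Uninjured, Peak CCl4 1 and Peak CCl4 2. The reads of the fibroblast wells of 1 such entry on 1 plate were summed and are called a portion, which gave 4 CCl4 and 2 uninjured portions. Whether 1 mouse supplied both plates is not stated in the sources used here, so the p-values below measure the spread between these portions, which need not be 4 and 2 separate mice.

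Portal fibroblasts are mesenchymal cells of the connective tissue around the portal vein and bile ducts. They express Pdgfra, the receptor for platelet-derived growth factor A, and secreted matrix proteins such as dermatopontin (Dpt). They are distinguished from vascular smooth muscle by little or no Myh11, a contractile gene. The absence of Reln and Lrat sets them apart from hepatic stellate cells. Acute phase genes encode proteins of the inflammatory response, some of which bind lipids, iron or haemoglobin. The list used here also holds receptor and regulator genes, among them Il6ra, Osmr and Socs3.

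The promoters of 3 genes that rose together are shown first, since Saa3 and Lcn2 are the acute phase genes and Cxcl13 the chemokine with the lowest p-values among those that passed the test. Each run is 300 bases of GRCm38.p6 from RefSeq, 250 bases before a transcript start to 50 after it, written 5′ to 3′ on the gene's strand. Capitals mark matches to TTGCNNAA on either strand, a form of the C/EBP motif.
Saa3 (chr7:46715627-46715926, minus strand): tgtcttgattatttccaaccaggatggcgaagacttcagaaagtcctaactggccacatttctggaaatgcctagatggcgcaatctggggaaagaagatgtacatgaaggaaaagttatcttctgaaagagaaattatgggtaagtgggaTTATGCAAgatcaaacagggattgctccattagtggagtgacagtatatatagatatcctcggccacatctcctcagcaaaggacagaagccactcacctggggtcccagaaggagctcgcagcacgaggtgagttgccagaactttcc
Lcn2 (chr2:32387690-32387989, minus strand): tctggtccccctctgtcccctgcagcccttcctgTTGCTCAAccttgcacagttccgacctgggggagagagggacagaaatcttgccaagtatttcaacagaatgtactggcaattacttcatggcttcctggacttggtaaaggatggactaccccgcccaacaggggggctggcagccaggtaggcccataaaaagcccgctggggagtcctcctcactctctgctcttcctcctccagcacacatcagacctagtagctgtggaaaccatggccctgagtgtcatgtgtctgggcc
Cxcl13 (chr5:95956689-95956988, plus strand): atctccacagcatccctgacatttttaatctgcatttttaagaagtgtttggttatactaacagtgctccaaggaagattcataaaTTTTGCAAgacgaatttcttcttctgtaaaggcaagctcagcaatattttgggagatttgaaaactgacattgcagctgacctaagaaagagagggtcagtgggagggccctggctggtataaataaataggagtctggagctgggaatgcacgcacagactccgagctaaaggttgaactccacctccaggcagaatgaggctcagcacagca
Each window held 1 match, at base 152 for Saa3, 35 for Lcn2 and 87 for Cxcl13, counted from 1 at the 5′ end. Of 32851 RefSeq promoters of this length, 10.8% held such a match. A form of the NF-kappaB motif was searched in the same way and matched none of the 3 windows and 1.63% of all promoters. A match is a description of the letters and not a binding site.

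The portions held 31 to 102 wells and 14508948 to 39801208 gene reads. The median well held 416022 to 521432 reads and 3967 to 5163 genes across portions. Spike-in reads were 0.0950% to 0.200% of a well's reads by median. The share of fibroblast wells among the wells of at least 50000 reads was 24.4% to 63.3% in CCl4 portions, and 34.4% and 47.2% in uninjured portions. In the members the summed fibroblast reads had a median of 1891 and a lowest value of 119, and the highest value outside the threshold was 87. The summed muscle reads had a median of 2 and a highest value of 98, and the lowest value outside was 104. Smart-seq2 reads have no molecular identifiers. The binomial intervals given for well shares describe counting error alone. They treat wells of the same portion as independent and do not cover the spread between portions or mice.

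The 7 genes of the rule are given as a description, with no test. In reads per 1000000 gene reads (RPM), Pdgfra stood at 863 and 572 in the plate 3 CCl4 portions, at 659 and 768 in those of plate 5, and at 656 and 736 in the uninjured portions of plates 3 and 5. Clec3b, a secreted lectin, stood at 108, 52.6, 48.4 and 149 RPM in CCl4 portions against 359 and 279 RPM. Dpt stood at 1002, 1175, 259.9 and 984 RPM against 1775 and 1059 RPM. The CCl4 and uninjured portions did not overlap for Clec3b and overlapped for Pdgfra and Dpt. Entpd2, an ectonucleotidase of portal fibroblasts, ranged from 205 to 407 RPM in CCl4 portions and stood at 285 and 103 RPM in uninjured portions. Gpx3, a secreted glutathione peroxidase, ranged from 3498 to 5329 RPM against 3611 and 2006 RPM. Myh11 and Cnn1 were at most 27.3 and 2.39 RPM in every portion, and for Myh11 the CCl4 portions all lay above the uninjured ones.

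Genes of other cell types were checked in the same wells. No well held reads of 3 or more endothelial, leucocyte or Schwann cell markers. At least 3 of 7 smooth muscle markers had reads in 236 of 255 CCl4 wells (92.5%) and 98 of 103 uninjured wells (95.1%). At least 3 cholangiocyte markers had reads in 9 CCl4 and 3 uninjured wells, and at least 3 hepatocyte markers in 3 and 2. Mesothelial cells cover the liver surface. At least 3 of 5 mesothelial markers were seen in 59 of 255 CCl4 wells (23.1%) and in 3 of 103 uninjured wells (2.91%), so this list moved with the condition. Its summed level was 198.6 to 1136 RPM in CCl4 portions, and 57.1 and 761 RPM in uninjured portions. All 5 markers had a log2 fold change above 0, as did 7011 of 14001 genes tested, with a median of 1.51, and none passed in edgeR. Wt1, which stellate cells also express, was the 1 marker at an unadjusted p under 0.05 and the 1 called by DESeq2. It stood at 147, 112, 403 and 236 RPM against 57.1 and 88.0 RPM (adjusted p = 0.178 by edgeR). Msln stood at 45.5, 0, 220.1 and 55.5 RPM against 0 and 315 RPM, which overlap. At least 3 of the 9 stellate cell markers had reads in 79 of 255 CCl4 wells (31.0%) and 61 of 103 uninjured wells (59.2%). On plate 3 these were 30 of 72 and 15 of 31 CCl4 wells, beside 21 of 43 uninjured wells. On plate 5 they were 16 of 102 and 18 of 50 CCl4 wells, beside 40 of 60 uninjured wells. The summed level of this list was 581 to 1510 RPM in CCl4 portions, and 1277 and 1252.5 RPM in uninjured portions, which overlap. Of its defining genes, Reln and Lrat had no read in any CCl4 portion, and stood at 50.5 and 10.1 RPM in the uninjured portion of plate 5 and at 0 and 0.327 RPM in that of plate 3.

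In the fibroblast wells, 2 acute phase genes and 3 chemokine or cytokine genes were among those that rose after CCl4, elastin was 1 of those that fell, and the major fibrillar collagen genes did not pass the test. edgeR's quasi-likelihood test with a plate term, with Benjamini-Hochberg adjustment over 14001 genes, called 23 genes higher in CCl4 portions (0.164% of genes tested) and 2 lower (0.0143%). Among the genes that rose were Cxcl13, Saa3, Chl1, Serpinb2, Casp1, Lgi3, Tmeff2, Sntg1, Adora2b, Rarres1, Lcn2, Serpina3i, Col24a1, Cxcl5, P4ha3, Cxadr, Tdo2, Il33, Stac2, Ugt1a7c, Npl and Ephx2, and those that fell were Ces1d and Eln. In all 25 the 4 CCl4 portions lay apart from both uninjured portions. Over all genes tested, every CCl4 portion lay above both uninjured portions for 9.92% of genes and below both for 10.2%. The median log2 fold change of all genes was 0.00. At an unadjusted p under 0.05 there were 1294 genes (9.24%). DESeq2 on the same portions called 533 genes higher (3.81%) and 178 lower (1.27%), and the 25 were among them. Fitting all 13 portions of fibroblast wells on plates 1 to 5 together, an alternative chosen after the data were seen, left 5 higher and 0 lower genes, with Saa3, Serpinb2, P4ha3 and Npl in common with the 25. Leaving out every well with a read of any mesothelial marker, also chosen after the data were seen, kept 145 of 358 wells and left no call in edgeR, with 232 genes at an unadjusted p under 0.05, and 14 of the 25 genes were still tested.

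**Figure D1:**
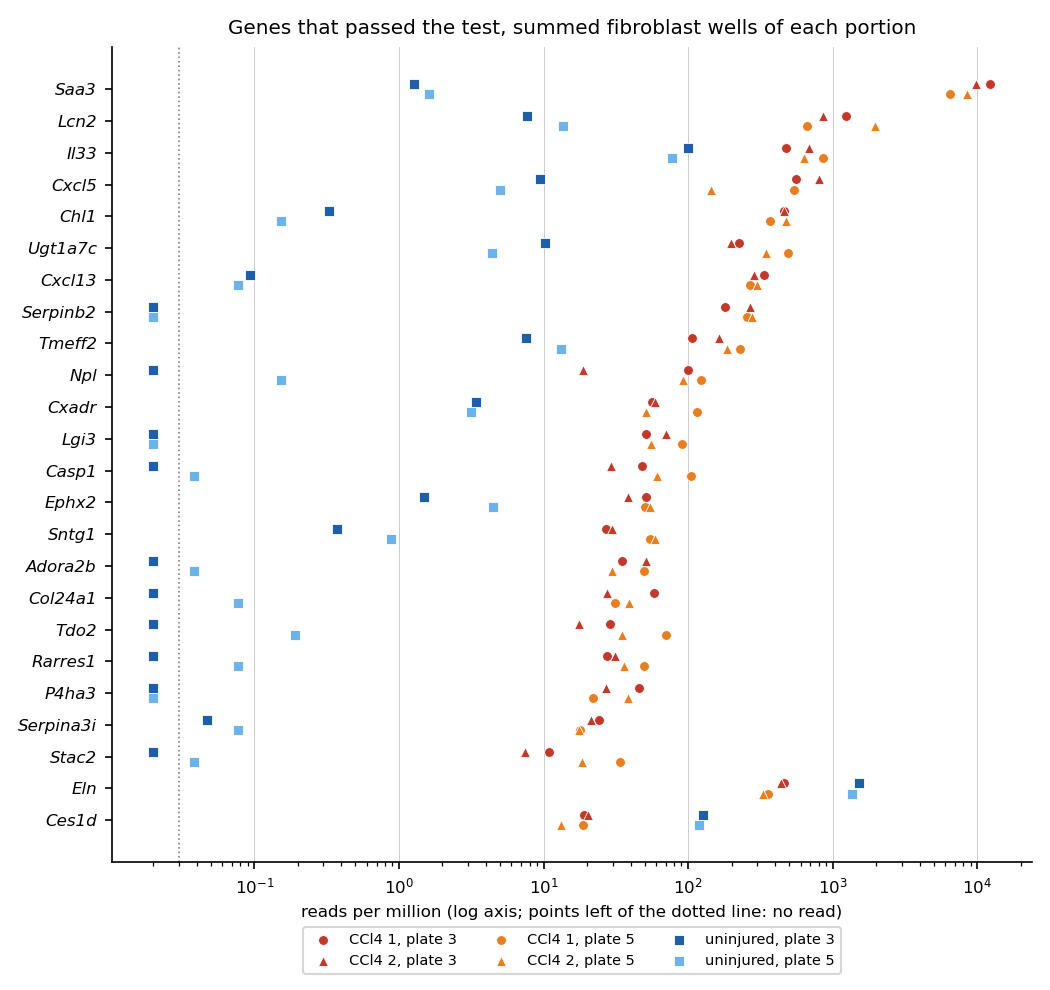
Reads per 1000000 gene reads (log axis) of 24 of the genes that passed the test, in the summed fibroblast wells of each of 4 CCl4 portions (red and orange, by plate) and 2 uninjured portions (blue). The CCl4 points lie to the right of the uninjured points for 22 genes and to the left for Eln and Ces1d, and points left of the dotted line stand for portions with no read.

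Of the acute phase list, 12 of 14 genes were tested and 2 rose. Saa3, a serum amyloid A apolipoprotein at chromosome 7, 46711998 to 46719615, stood at 12285 RPM in CCl4 1 and 9831 RPM in CCl4 2 on plate 3, and at 6531 RPM and 8541 RPM on plate 5. The uninjured portions held 1.26 and 1.61 RPM. Every CCl4 portion was thus higher than every uninjured portion. The log2 fold change was 12.63 ± 0.52 (SE derived from the test's F statistic, adjusted p = 3.63e-04 by edgeR). Lcn2, which binds bacterial siderophores (chromosome 2, 32384637 to 32387739), stood at 1233, 852, 663 and 1974 RPM in the CCl4 portions in the same order and at 7.67 and 13.6 RPM in uninjured portions. Its log2 fold change was 6.87 ± 0.67 (adjusted p = 0.0221, edgeR), a call lost without either CCl4 portion of plate 3 (highest adjusted p = 0.0970). Haptoglobin (Hp), which binds free haemoglobin, stood at 2064, 543, 922 and 1683 RPM against 1.45 and 7.18 RPM and did not pass the test (adjusted p = 0.0512 by edgeR and 1.55e-17 by DESeq2). Steap4, a metalloreductase, stood at 641 to 1279.7 RPM against 368 and 459 RPM (adjusted p = 0.214, edgeR). The median log2 fold change of the 12 tested genes was 2.23, beside 0.00 over all genes. Saa3 has close relatives in the genome, so the split of reads between them is uncertain.

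Of the chemokines and cytokines, 19 of 21 genes were tested, 3 rose and none fell. Cxcl13, the chemokine that attracts B cells (chromosome 5, 95956939 to 95961068), stood at 333, 284, 268 and 298 RPM in CCl4 portions. The uninjured portions of plates 3 and 5 held 0.0935 and 0.0768 RPM, 4 reads in all, and its log2 fold change of 11.70 ± 0.41 (adjusted p = 3.03e-04, edgeR) rests on those 4 reads as the base. Cxcl5, a neutrophil chemoattractant, stood at 554, 804, 540.4 and 143 RPM against 9.44 and 4.99 RPM (log2 fold change 6.12 ± 0.64, adjusted p = 0.0249, edgeR). Its lowest CCl4 portion, CCl4 2 on plate 5, still lay above both uninjured portions. Il33, an alarmin of the interleukin 1 family, stood at 475, 688, 854 and 638 RPM against 99.95 and 77.8 RPM, 7.47 times the uninjured mean (log2 fold change 2.89 ± 0.31, adjusted p = 0.0257, edgeR). The Il33 call was lost without any 1 portion but the uninjured one of plate 3 (highest adjusted p = 0.0874, edgeR), and that of Cxcl5 without either CCl4 portion of plate 3 (highest adjusted p = 0.106, edgeR). Cxcl2 had no read in either uninjured portion, and its CCl4 portions ran from 0.905 to 27.8 RPM (adjusted p = 0.239, edgeR).

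Several genes that rose were at or near 0 in both uninjured portions. Serpinb2, plasminogen activator inhibitor 2 (chromosome 1, 107500892 to 107525600), stood at 179, 268, 254 and 276 RPM in CCl4 portions and had no read in 47432149 uninjured reads. The CCl4 mean of 244 ± 44.2 RPM (SD, n = 4 portions) was 3864 times a floor of 3 reads over both uninjured portions (adjusted p = 0.00140, edgeR). This floor counts reads and not wells, so it is no bound on the fold where wells differ. Lgi3, a secreted leucine-rich repeat protein, was likewise at 0 in both uninjured portions. It stood at 51.3, 70.4, 90.3 and 55.1 RPM in CCl4 portions, with a mean 1056 times the same floor (adjusted p = 0.00587, edgeR). Chl1, a cell adhesion molecule of the L1 family, stood at 458, 458, 366 and 473 RPM against 0.327 and 0.154 RPM (adjusted p = 3.63e-04, edgeR). Casp1, the inflammasome protease, stood at 48.0, 29.5, 104 and 61.4 RPM with 1 uninjured read in all. Its pooled ratio was 3263, with a 95% counting interval of 586 to 128873 that also covers reads alone and not wells. Adora2b, an adenosine receptor, also had 1 uninjured read and stood at 29.6 to 51.0 RPM in CCl4 portions, a call lost without CCl4 1 on plate 5. Npl, a sialic acid lyase, stood at 99.7, 18.8, 122 and 92.7 RPM with 4 uninjured reads. CCl4 2 on plate 3 was the lowest of its 4 portions. Of the fits without 1 of the 4 CCl4 portions, those without either portion of plate 5 lost the Npl call.

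Of 9 fibrillar collagen genes, all tested, 1 rose and none fell. Col24a1, a minor fibrillar collagen, stood at 58.1, 27.4, 31.5 and 38.9 RPM in CCl4 portions with 2 uninjured reads (adjusted p = 0.0236, edgeR), a call lost without any 1 of the 4 CCl4 portions (adjusted p = 0.0670 to 0.0970, edgeR). The major collagen genes did not pass. Col1a1 stood at 6636 and 5394 RPM in the plate 3 CCl4 portions and 3447 and 2485 RPM in those of plate 5, against 4543 and 5562 RPM, with a log2 fold change of -0.29 ± 0.32 (adjusted p = 0.854, edgeR). Col1a2 gave -0.36 ± 0.28 (adjusted p = 0.761) and Col3a1 -0.46 ± 0.28 (adjusted p = 0.665) by the same test. All 3 log2 fold changes turned positive without the uninjured portion of plate 5, to 0.42 for Col1a1, 0.19 for Col1a2 and 0.018 for Col3a1, so no direction is given. For Col1a1 the plate 3 CCl4 portions included the highest of the 6 values and the plate 5 CCl4 portions the lowest. P4ha3, a subunit of collagen prolyl 4-hydroxylase, was the 1 of 19 tested collagen processing genes that rose. It stood at 46.0, 27.1, 21.9 and 38.3 RPM in CCl4 portions with no uninjured read. The CCl4 mean was 527 times the floor described above, which counts reads and not wells. That call too was lost without any 1 of the 4 CCl4 portions (adjusted p = 0.0750 to 0.141, edgeR). Bmp1, the procollagen C-proteinase, stood at 521 to 773 RPM against 201 and 214 RPM and did not pass (adjusted p = 0.0618, edgeR). In the wells with no read of any mesothelial marker Bmp1 stood at 47.5 to 215 RPM against 218 and 171 RPM. Each CCl4 portion there lay below the uninjured portion of its plate.

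Elastin (Eln, chromosome 5, 134702595 to 134747368), the core protein of elastic fibres, was the 1 gene of 17 in its list that fell. It stood at 460.1, 438, 355 and 328 RPM in CCl4 portions and at 1526 and 1363 RPM in uninjured portions, with a log2 fold change of -1.87 ± 0.18 (adjusted p = 0.0207, edgeR). The call was lost without any 1 of the 6 portions, with adjusted p-values of 0.0511 to 0.118 by edgeR. Other members of the list went in both directions without a call. Ltbp4, which elastic fibre assembly requires, stood at 323 to 819 RPM against 1636 and 1609 RPM (adjusted p = 0.196, edgeR). Fbln2 stood at 683 to 949 RPM against 288 and 339 RPM (adjusted p = 0.0696, edgeR). In the wells with no read of any mesothelial marker Ltbp4 was still apart, at 789 to 1300 RPM against 1600 and 1483 RPM. Fbln2 overlapped there, at 0.712 to 215 RPM against 212 and 101 RPM. None of 14 basement membrane genes passed, and 13 of the 14 had a log2 fold change below 0, with a median of -0.59. Over all genes, 6990 of 14001 were below 0. At an unadjusted p under 0.05 by edgeR, 7 of the 14 were lower and 0 higher, where 3.51% of all genes were lower. Lamc1, the laminin gamma 1 chain, stood at 127 to 219 RPM against 361 and 409.8 RPM (adjusted p = 0.175, edgeR). Timp1, the inhibitor of metalloproteinases, stood at 905, 1615, 832 and 675 RPM against 85.7 and 141 RPM and did not pass (adjusted p = 0.0638, edgeR). In the wells with no read of any mesothelial marker Timp1 overlapped, at 45.6 to 313 RPM against 99.1 and 168 RPM. Lamc1 was still apart there, at 132 to 255 RPM against 272 and 316 RPM. None of 15 contractile genes passed, and Acta2, alpha smooth muscle actin, stood at 270.4 to 882 RPM in CCl4 portions and at 288 and 673 RPM in uninjured portions.

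**Figure D2:**
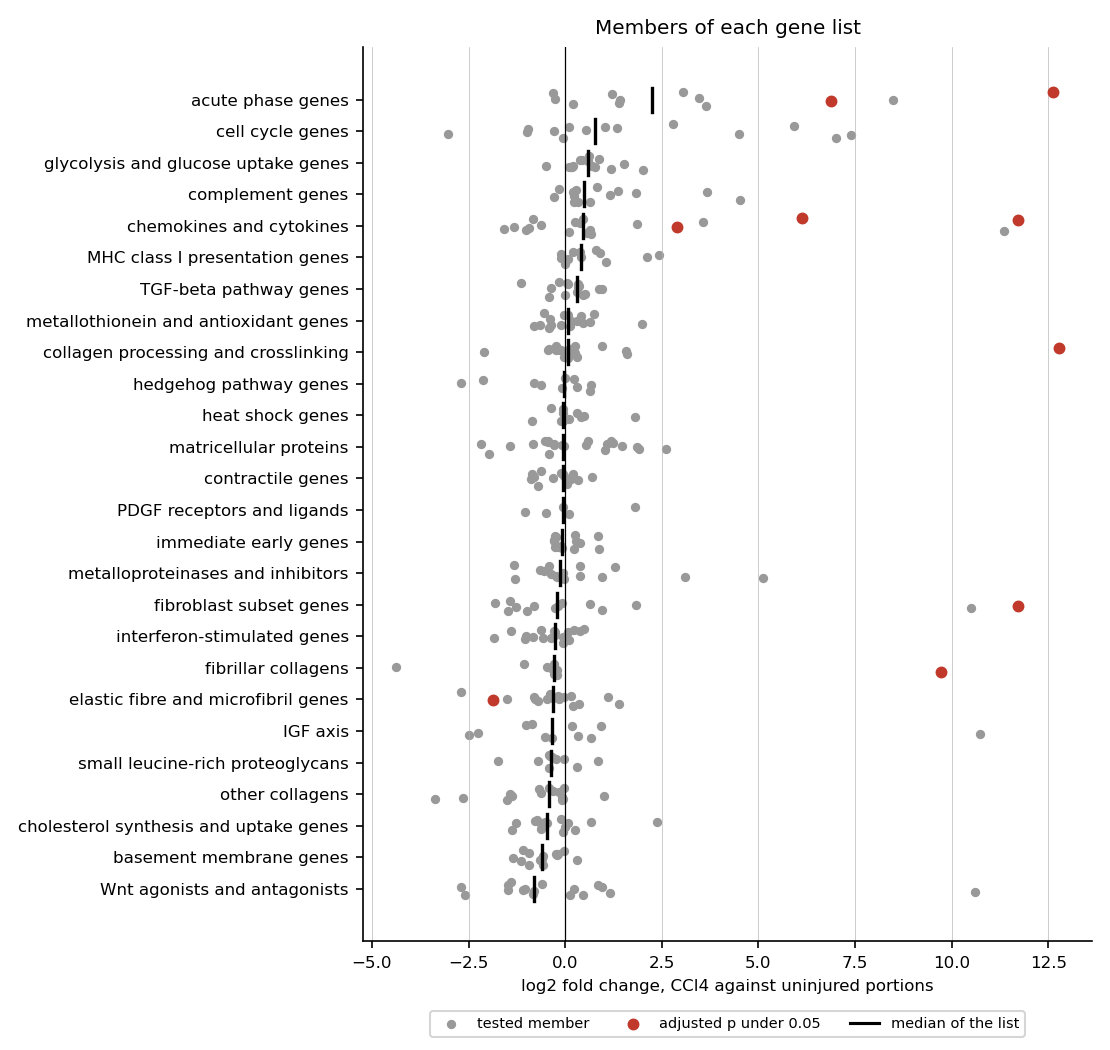
log2 fold change of CCl4 against uninjured portions for every tested member of 26 gene lists, each point 1 gene, with the median of each list as a black line and genes at an adjusted p under 0.05 in red. The acute phase list has the highest median, 2.23, and the red point left of 0 is Eln. Fitted values of genes with no uninjured read depend on the prior count of the fit and are not bounds.

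The other gene that fell was Ces1d, a carboxylesterase that hydrolyses lipid esters, at 18.9, 20.3, 18.9 and 13.2 RPM in CCl4 portions and 126 and 118 RPM in uninjured portions (log2 fold change -2.78 ± 0.24, adjusted p = 0.0130, edgeR), a call kept without CCl4 2 on plate 5 and lost without any other portion. Ces1d, Serpina3i and Ugt1a7c belong to families with near-identical copies or shared exons, so the assignment of their reads is uncertain. The summed level of 6 hepatocyte markers was 240.8 to 818 RPM in CCl4 portions, and 738 and 1152 RPM in uninjured portions. With wells thinned as described below, Cyp2e1 alone stood at 690 to 979 RPM in uninjured portions. No other marker of the list exceeded 65.1 RPM there. By mean, Cyp2e1 stood at 0.09 RPM in the Saa3 wells of CCl4 portions, defined below, and at 688 RPM in the other CCl4 wells. Whether the sum reflects carry-over from hepatocytes was not tested.

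No complement gene passed among 14 tested of 16, and 5 had an unadjusted p under 0.05, all higher (5.74% of all genes were higher at that level). C3, the central complement component, stood at 11675, 10102, 13373 and 12581 RPM against 4929 and 4358 RPM, 2.57 times the uninjured mean (adjusted p = 0.0877 by edgeR and 2.35e-09 by DESeq2). Cfb, complement factor B, stood at 810.2 to 1564 RPM against 53.2 and 141 RPM (adjusted p = 0.0643, edgeR). The CCl4 and uninjured portions did not overlap for C3 or Cfb. In the wells with no read of any mesothelial marker they overlapped for both. C3 stood there at 4794, 2055, 2121 and 7059 RPM against 4466 and 2173 RPM, and Cfb at 95.6 to 267 RPM against 70.2 and 98.9 RPM. Of 15 glycolysis and glucose uptake genes none passed, and 5 were higher at an unadjusted p under 0.05. A log2 fold change above 0 was seen for 14 of the 15, with a median of 0.60, beside 7011 of 14001 genes tested. Pfkl, a phosphofructokinase, stood at 78.2 to 91.0 RPM against 27.3 and 16.01 RPM (adjusted p = 0.0913, edgeR). Of 12 class I antigen presentation genes none passed and 3 were higher at an unadjusted p under 0.05. H2-K1 stood at 1259.9 to 1756 RPM against 817 and 723 RPM (adjusted p = 0.235, edgeR). In the wells with no read of any mesothelial marker Pfkl stood at 3.33 to 26.5 RPM against 17.9 and 13.6 RPM. H2-K1 stood there at 517 to 860 RPM against 905 and 750 RPM, with each CCl4 portion below the uninjured portion of its plate.

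In the remaining lists, Cxcl13 was also the 1 gene called among 14 fibroblast subset genes. None passed among matricellular proteins, small leucine-rich proteoglycans, non-fibrillar collagens, metalloproteinases and their inhibitors, TGF-beta, interferon, antioxidant, Wnt, insulin-like growth factor, PDGF, hedgehog, cell cycle, immediate early, heat shock and cholesterol genes. Of 19 tested interferon-stimulated genes, 3 were lower at an unadjusted p under 0.05 and none higher, where 3.51% of all genes were lower at that level. Ifit3 stood at 23.9 to 37.0 RPM against 149 and 70.7 RPM (adjusted p = 0.0618, edgeR). Hhip, a hedgehog-binding protein, stood at 5.76 to 17.3 RPM against 98.0 and 56.5 RPM (adjusted p = 0.0696, edgeR).

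The summed levels hid large differences between wells. Each well was thinned to 50000 reads, and wells with at least 10 Saa3 reads, a limit chosen after the values were seen, were counted. They were 33 of 72 wells (45.8%, 95% exact binomial interval 34.0 to 58.0) of CCl4 1 and 9 of 31 (29.0%, 14.2 to 48.0) of CCl4 2 on plate 3. On plate 5 they were 56 of 102 (54.9%, 44.7 to 64.8) and 24 of 50 (48.0%, 33.7 to 62.6). None of the 103 uninjured wells reached 10 reads, and the highest uninjured well held 2. The same interval allows a share of up to 8.22% in the uninjured portion of plate 3 and 5.96% in that of plate 5. The highest CCl4 well held 3408 Saa3 reads of 50000. In all, 122 of 255 CCl4 wells (47.8%) were above the limit.

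**Figure D3:**
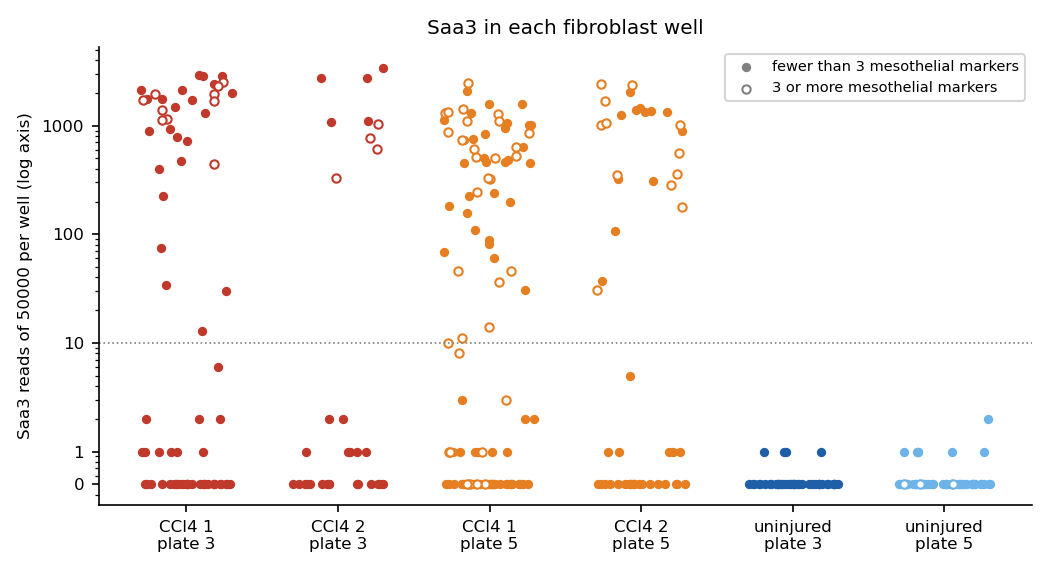
Saa3 reads of 50000 in each of 358 fibroblast wells (log axis, with 0 drawn below 1), by portion; open points are wells with reads of 3 or more mesothelial markers and the dotted line is at 10 reads. CCl4 wells spread from 0 to 3408 reads and uninjured wells reach at most 2.

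Saa3 wells and the other CCl4 wells were then set side by side for other genes, as a description with no test, since the split uses a measured outcome. Lcn2 stood at 2772 ± 1262 RPM (SD, n = 4 portions) in Saa3 wells and 60.8 ± 28.2 RPM in the other CCl4 wells, and at 7.91 and 16 RPM in uninjured wells. Cxcl13 stood at 708 ± 173 RPM in Saa3 wells, 1.94 ± 2.24 RPM in other CCl4 wells and 0 in uninjured wells at this depth. Serpinb2 stood at 605 ± 190 and 2.5 ± 5 RPM, Chl1 at 1050 ± 340 and 31.1 ± 51.8 RPM, and Col24a1 at 85.4 ± 30.5 and 3.70 ± 5.55 RPM. Il33 stood at 1324 ± 456 RPM and 234 ± 106 RPM, against 89.0 and 108 RPM. C3 stood at 21291 ± 3374 RPM in Saa3 wells and 5413 ± 1946 RPM in the others, against 4550.0 and 4887 RPM. For C3 the other CCl4 wells ranged over the uninjured values.

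Genes that fell in the summed portions were lowest in the same wells. Eln stood at 114 ± 45.5 RPM in Saa3 wells, 629 ± 83.2 RPM in the other CCl4 wells and 1335 and 1425 RPM in uninjured wells, so the other CCl4 wells also lay below the uninjured ones. Ces1d stood at 2.85 ± 3.49 RPM and 21.7 ± 6.81 RPM, against 108 and 114 RPM. Dpt, of the rule, stood at 231 ± 91.0 RPM in Saa3 wells and 1217 ± 559.8 RPM in the others, while Pdgfra stood at 668 ± 128 and 739 ± 171 RPM. Col1a1 stood at 3949.6 ± 2230.1 RPM and 5099 ± 1725 RPM, which overlap. The transgene eGFP, which marks the sorted cells, stood at 235 ± 60.7 and 382 ± 88.5 RPM.

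**Figure D4:**
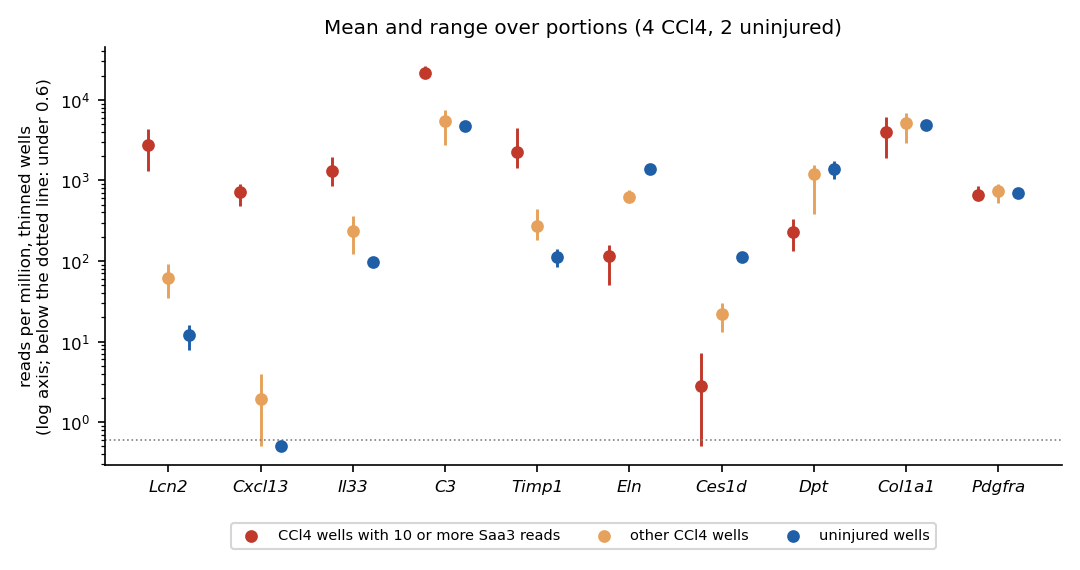
Mean (point) and range (line) over portions of the RPM in wells thinned to 50000 reads (log axis) for 10 genes, in CCl4 wells with at least 10 Saa3 reads, in the other CCl4 wells (4 portions each) and in uninjured wells (2 portions). Lcn2, Cxcl13, Il33, C3 and Timp1 are highest and Eln, Ces1d and Dpt lowest in the Saa3 wells by mean, with values under 0.6 drawn below the dotted line, and the ranges of Col1a1 and Pdgfra overlap.

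Mesothelial markers moved with Saa3 across wells. Of the 122 Saa3 wells, 50 held reads of at least 3 of the 5 mesothelial markers, 70 of 1 or 2 and 2 of none (1.64%). Of the 133 other CCl4 wells, 9 held at least 3, 46 held 1 or 2 and 78 held none (58.6%), and 65 of the 103 uninjured wells held none (63.1%). All 5 markers were higher by mean in Saa3 wells than in the other CCl4 wells. Wt1 stood at 395 ± 123 and 96.6 ± 127 RPM, Gpm6a at 259 ± 122 and 22.8 ± 45.1 RPM, and Lrrn4 at 115 ± 58.6 and 5.14 ± 8.06 RPM. Msln stood at 171 ± 196 and 0.326 ± 0.652 RPM and Upk3b at 135 ± 138 and 1.15 ± 1.46 RPM, both at 0 in the Saa3 wells of at least 1 portion. Krt19, a keratin of epithelial cells, stood at 138 ± 139 and 1.17 ± 1.86 RPM. In the uninjured wells Msln stood at 0 and 293 RPM, Upk3b at 0 and 183 RPM and Gpm6a at 0 and 137 RPM, by portion. Wt1 stood at 53.5 and 87.3 RPM and Lrrn4 at 0 and 32 RPM there.

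Several fibroblast genes outside the rule were lower in the Saa3 wells, also as a description. Mfap4, a microfibril protein, stood at 308 ± 149 RPM in Saa3 wells, 3111 ± 1119 RPM in the other CCl4 wells, and 2354 and 3295 RPM in uninjured wells. Gdf10, a growth factor of the TGF-beta family, stood at 30.3 ± 31.4 and 1373 ± 692 RPM, and Lama2, a laminin chain, at 13.1 ± 8.79 and 540.4 ± 189 RPM. Fbln2 went the other way, at 1531 ± 440.4 and 342 ± 156 RPM.

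Wells with no read of any mesothelial marker gave much smaller Saa3 and Cxcl13 values in CCl4 portions. Saa3 stood at 22.4 and 2.46 RPM on plate 3 and 3.38 and 315 RPM on plate 5, against 1.44 and 1.78 RPM in uninjured portions, with a log2 fold change of 4.57 ± 2.11 that did not pass. Cxcl13 was at 0.200 RPM in CCl4 1 of plate 3 and at 0 in the other CCl4 portions, against 0.125 and 0.149 RPM in uninjured portions. Serpinb2 was at most 0.130 RPM in any portion. Chl1 stood at 0.133 and 0 RPM on plate 3 and 0.178 and 28.9 RPM on plate 5, against 0.376 and 0.297 RPM. Lcn2 overlapped, at 43.1 and 0.389 RPM on plate 3 and 0.178 and 34.4 RPM on plate 5, against 10.2 and 0.149 RPM. Cxcl5 overlapped too, at 0.333, 35.9, 0 and 6.78 RPM in CCl4 portions against 11.98 and 0.0743 RPM. Hp also overlapped there, at 0 to 23.9 RPM against 1.76 and 0.743 RPM. Il33 stood at 156, 147, 162 and 256 RPM against 121 and 85.6 RPM, still apart (log2 fold change 0.81 ± 0.41, not passed). Eln stood at 778, 481, 401 and 608 RPM against 1401 and 1694 RPM, still apart, with a log2 fold change of -1.42 ± 0.35 that did not pass. This choice also leaves fewer wells in every portion, and it removes all but 2 of the Saa3 wells.

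Leaving out only the 68 wells with 3 or more markers of any other cell type left 21 genes higher and 2 lower, Saa3 among them. Wells with 1 or 2 mesothelial markers were not left out on that account, and 70 of the 122 Saa3 wells were of that kind. The calls kept here therefore do not speak for wells without mesothelial reads. Of the 25 called genes 15 still passed, and Cxcl13, Lcn2, Col24a1, Tdo2, Il33, Stac2, Ugt1a7c, Npl and Ephx2 were among those that did not. The errors of these 9 genes grew, while all 9 kept their direction, with log2 fold changes of 10.37 ± 1.88 for Cxcl13, 8.06 ± 1.52 for Lcn2 and 2.79 ± 0.37 for Il33.

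The same plates held smooth muscle wells, which allows the change to be compared between cell classes. The fibroblast wells here include those with mesothelial markers. The difference of the 2 CCl4 effects was tested over 12 sums with portion as a block, and passed for 5 of 14928 genes (0.0335%), all higher in fibroblast wells, and for none in the other direction. At an unadjusted p under 0.05 there were 572 genes (3.83%), and DESeq2 called 138 higher (0.982%) and 58 lower (0.413%). The 5 were Saa3, Serpinb2, Chl1, Hp and Ly6a. In smooth muscle wells Saa3 stood at 6.43, 4.50, 5.10 and 4.98 RPM in CCl4 portions and at 2.09 and 14.4 RPM in uninjured portions, which overlap. The difference of the log2 fold changes was 12.79 ± 0.85 (adjusted p = 0.00369, edgeR). Hp stood at 0.334 to 1.30 RPM in CCl4 muscle wells and at 0.290 and 0.561 RPM in uninjured ones, with a difference of 7.62 ± 0.48 (adjusted p = 0.00369, edgeR). Ly6a, the stem cell antigen Sca-1, did not pass in fibroblast wells alone, where it stood at 362 to 588 RPM against 431 and 248 RPM. In muscle wells it was lower in every CCl4 portion, at 0.210 to 0.565 RPM against 6.05 and 3.19 RPM. In the smooth muscle wells alone edgeR called no gene, with 289 of 12800 (2.26%) at an unadjusted p under 0.05.

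**Figure D5:**
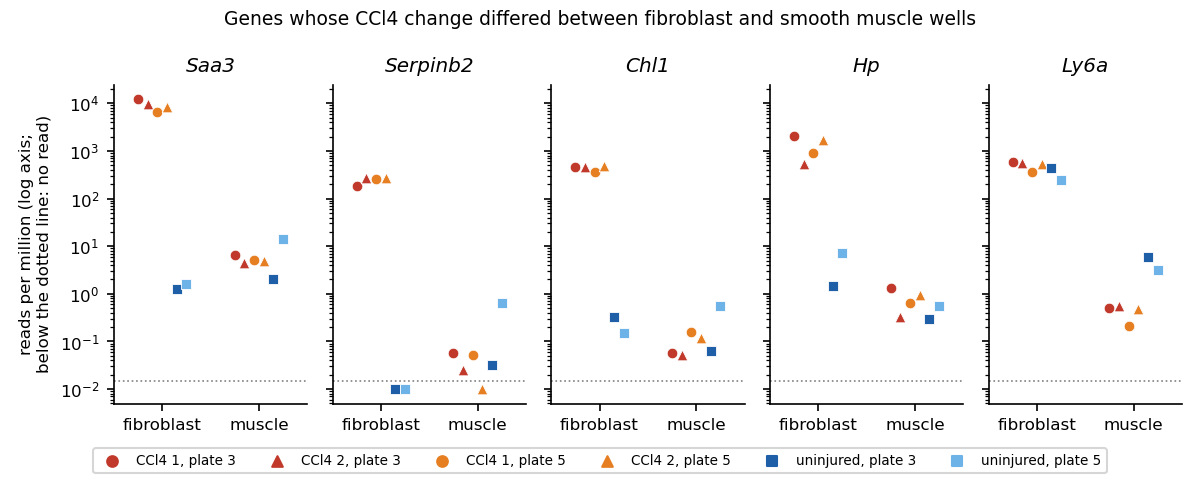
RPM (log axis) of the 5 genes whose CCl4 change differed between cell classes, in fibroblast and in smooth muscle wells of the same 6 portions, with CCl4 in red and orange and uninjured in blue. For Saa3, Serpinb2, Chl1 and Hp the conditions lie apart in fibroblast wells and overlap in muscle wells, and for Ly6a they lie apart in muscle wells and overlap in fibroblast wells.

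Plates 1, 2 and 4 held fibroblast wells from mice 14 days after ligation of the bile duct (BDL), beside uninjured portions of their own. The difference between the CCl4 and the BDL effect was tested over 13 portions, and no gene of 13804 passed in edgeR. At an unadjusted p under 0.05 there were 736 genes (5.33%), and DESeq2 called 97 higher (0.703%) and 113 lower (0.819%). The BDL effect alone gave 5 higher (0.0362%) and 1 lower gene (0.00724%), with 1309 (9.48%) at an unadjusted p under 0.05. Saa3 stood at 0.112, 0, 0 and 37.7 RPM in the 4 BDL portions, so that all 4 lay below every CCl4 portion, but the fitted difference of 3.15 ± 1.67 on the log2 scale did not pass (adjusted p = 0.947, edgeR). The plates differ between these groups. Cxcl13 stood at 7.93, 0, 51.2 and 311 RPM in BDL portions, and the highest, BDL 1 on plate 4, was within the CCl4 range. P4ha3 stood at 13.04, 23.1, 25.2 and 24.3 RPM in BDL portions and rose in the BDL comparison too (adjusted p = 0.0357, edgeR). Eln stood at 748, 1050.3, 1824 and 1052 RPM in BDL portions, with a CCl4 minus BDL difference of -2.80 ± 0.60 (adjusted p = 0.854, edgeR).

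The 3 uninjured portions of plates 1, 2 and 4, not used in the main comparison, give a further baseline. Saa3 was at most 0.0391 RPM in them, and Serpinb2 and Chl1 had no read. Cxcl13 reached 33.1 RPM in 1 of the 3 and was 0 at the median. Ephx2 stood at 6.83 to 34.9 RPM, above the uninjured portions and below the CCl4 portions of plates 3 and 5. Eln stood at 296 to 835 RPM with a median of 787 RPM, which overlaps the CCl4 range of 328 to 460.1 RPM. Il33 stood at 76.5 to 200.03 RPM, below every CCl4 portion of plates 3 and 5.

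Droplet libraries (10X) made with the same PF protocol, 1 uninjured and 1 after 6 weeks of CCl4, gave 4020 and 2666 fibroblast cells by a like rule (at least 5 UMIs of the 5 fibroblast genes and fewer than 5 of the muscle genes). With 1 library per condition there was no test, and intervals cover counting error only. Saa3 stood at 3.23 UMIs per 1000000 UMIs (95% exact Poisson interval 2.50 to 4.12) in uninjured and 22.3 (20.1 to 24.7) in CCl4 fibroblasts. Lcn2 stood at 1.59 (1.09 to 2.25) and 3.40 (2.58 to 4.40), and Hp at 4.08 (3.24 to 5.06) and 9.68 (8.26 to 11.3). These are the directions of the plates with far smaller ratios. Serpinb2 had no UMI in either library. Cxcl13 stood at 90.6 (86.5 to 94.8) in uninjured and 63.2 (59.5 to 67.1) in CCl4 cells, against the direction of the plates, and Eln at 579.9 (569 to 590.5) and 533 (522 to 544). Of the 23 genes that rose, 19 had at least 20 UMIs over both libraries, and 14 of the 19 were higher in the CCl4 library, beside 52.7% of all such genes. Both genes that fell on the plates had that many UMIs. Eln was lower in the CCl4 library, and Ces1d was higher, against the direction of the plates. The 2 libraries share 45 barcodes, 0.784% of those of the uninjured library.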

How the data were processed

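Reads per gene and well of Smart-seq2 plates 1 to 6 were deposited as raw counts, which the authors made with STAR on mm10 with the sequences of eGFP and the spike-ins added and counted with rpkmforgenes on RefSeq. The 10X counts deposited are UMIs per gene and cell from Cell Ranger 2.1.0, with no doublet calling done here. Members and gene lists were chosen with earlier results of these data known. Rows of 1 symbol were summed (24490 rows to 23998 symbols), and wells were summed per layout entry and plate, with at least 10 wells. BDL 2 on plate 2 fell under that minimum and was left out.

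Summed counts were tested with edgeR 4.0.16 (TMM, filterByExpr, quasi-likelihood F test, plate as a term, R 4.3.3) and called at an adjusted p under 0.05. The comparison with smooth muscle wells had portion as a block. The SE beside an edgeR log2 fold change is the size of that fold change divided by the square root of the F statistic. It restates the test and is not a separate estimate of spread. DESeq2 1.42.0 was an alternative. The fit was also run on simulated counts with the same dispersion for every gene and no plate effect, without genes of few reads. These counts do not imitate genes at or near 0 in uninjured portions, and no result here rests on them. Fold changes are TMM-scaled, while RPM are per 1000000 gene reads of a portion, here 14508948 to 39801208 reads. A gene with no uninjured read was set against a floor of 3 reads over both uninjured portions, which counts reads and not wells. Strand was not used for counting as far as the sources used here state, so overlapping genes cannot be told apart. Genes were named as the 10 largest fold changes each way among called genes with a mean of at least 20 RPM, up to 4 members of smallest p of each list, the called genes of the other comparisons, the rule genes, Col1a1, Col1a2, Col3a1 and Acta2. The other called genes, Ly6a, Msln, Reln, Lrat and the genes of the Saa3 split were named after their values were seen. Alternatives changed the scaling, filter, tool, plate term, well thresholds and portions, and 2 of them, plates 1 to 5 in one fit and wells without mesothelial markers, were chosen after seeing the data. The result of 1 called gene and of its list is not reported here.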

Additional observations from a re-analysis of the deposited data

Results flagged for a closer look

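Of 36 groups of 4 CCl4 portions examined for a sample far from the rest, 2 held one, both in CCl4 1 on plate 5. Chl1 stood at 366 RPM there, below the other 3 portions, and Cxadr at 115 RPM, above the other 3. The CCl4 effect differed between fibroblast and smooth muscle wells for 5 genes by the edgeR test of the difference, which was 18.76 on the log2 scale for Serpinb2, 12.79 for Saa3, 12.33 for Chl1, 7.62 for Hp and 3.995 for Ly6a. The value for Serpinb2 depends on the prior count of the fit, since its uninjured fibroblast portions held no read.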

How the results depend on the processing

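The number of genes called by CCl4 depended on the processing. Against 23 higher and 2 lower genes, DESeq2 gave 533 and 178, no low count filter 173 and 44, no plate term 52 and 4, wells thinned to 50000 reads 61 and 6, and fibroblast genes at 500 reads or more 36 higher. Plates 1 to 6 in one fit gave 2 and 0, and plates 1 to 5, chosen after seeing the data, 5 and 0. Leaving out 1 portion gave 9 to 62 higher and 0 to 4 lower genes, with the lowest without CCl4 1 and the highest without the uninjured portion of plate 5. For the difference from smooth muscle wells DESeq2 gave 138 and 58 genes, and leaving out 1 portion 2 to 6 and 0 to 1. For the difference from BDL DESeq2 gave 97 and 113, and no low count filter 8 and 13. Leaving out 1 portion of plates 3 and 5 gave 0 for that difference, and no portion of plates 1, 2 and 4 was left out. The cause of these changes was not tested. Leaving out wells with any mesothelial marker, also chosen after seeing the data, gave 0 and 0, with 232 genes at an unadjusted p under 0.05 by edgeR. DESeq2 was not run on those wells. Of 489 values of the 25 called genes under 20 alternatives, 345 kept their call, 143 lost it and 1 changed direction, that of Cxadr at -1.88 without wells with any mesothelial marker. Leaving out 1 portion moved the log2 fold change of Col1a1 over -0.89 to 0.42, of Col1a2 over -0.82 to 0.19, of Col3a1 over -0.88 to 0.018 and of Acta2 over -0.24 to 0.98, with the sign turned for the collagens without the uninjured portion of plate 5 and for Acta2 without that of plate 3. Acta2 was also at -0.010 with muscle genes under 10 reads. The plate term sets CCl4 and uninjured portions against each other within a plate, and the fit without it is given above.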
